A study of Mus musculus with 8 samples.

Results

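9 genes that set glycogen storage and glucose output in hepatocytes were followed across 8 mouse RNA libraries: Ppp1r3b, Ppp1r3c, Ppp1r3g, Gys2, Pygl, G6pc, Pck1, Irs2 and Ppargc1a. They were chosen by symbol, with earlier results of these data known, as 9 of the 23282 gene rows of the deposited count files. All 9 had a row in every library. Levels are CPM, the gene's count per 1000000 counts of its library. The libraries were made by 3' end sequencing (QuantSeq, which reads near the polyadenylated end, so that a count depends little on transcript length) from liver or uterus tissue of CD-1 female mice, which are outbred. All animals had been ovariectomized at 6 weeks of age and given 1 week of recovery, so the control animals lack ovaries too. They could eat at will, and the labels do not say if food was withdrawn or at what hour tissue was taken. For 7 days they were dosed orally with 200 mg/kg/day of bisphenol A (BPA, an estrogen receptor ligand used to make plastics), with 1.2 g/kg/day of Korean red ginseng (KRG), with both together or with neither (control), and the comparison asks how ginseng and BPA act together. Each tissue and treatment has 1 library, and the labels do not say if animals were pooled or if both tissues came from the same animals.

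The liver stores glucose as glycogen after a meal and releases it between meals. Glycogen synthase builds the polymer and glycogen phosphorylase takes it apart. Protein phosphatase 1 activates the first and inactivates the second when a glycogen-targeting subunit of the PPP1R3 family holds it on the glycogen particle. Gluconeogenesis makes new glucose from lactate, amino acids and glycerol. Fasting hormones raise the transcription of its enzymes through cAMP signalling and the coactivator PGC-1 alpha, and insulin, acting through the insulin receptor substrates, lowers it.

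Promoter sequences of 5 of the genes are printed because these genes differed most between the liver libraries or carry the DNA letters best known from this pathway. Each runs 5' to 3' from 250 bases before to 50 after the RefSeq transcript start on GRCm38.p6, and capitals mark matches, on either strand, to the 5 motifs searched: TGACGT (the core of the cAMP response element), CACGTG (E-box), TATAAA (the TATA box), TGTTTAC (FOXO core) and CCAAT.
Ppp1r3g: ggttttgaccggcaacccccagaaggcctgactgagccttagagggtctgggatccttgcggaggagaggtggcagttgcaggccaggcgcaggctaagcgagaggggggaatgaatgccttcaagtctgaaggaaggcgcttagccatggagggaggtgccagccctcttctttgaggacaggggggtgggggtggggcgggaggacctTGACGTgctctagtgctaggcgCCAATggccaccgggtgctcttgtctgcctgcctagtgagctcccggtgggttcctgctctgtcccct
Ppp1r3c: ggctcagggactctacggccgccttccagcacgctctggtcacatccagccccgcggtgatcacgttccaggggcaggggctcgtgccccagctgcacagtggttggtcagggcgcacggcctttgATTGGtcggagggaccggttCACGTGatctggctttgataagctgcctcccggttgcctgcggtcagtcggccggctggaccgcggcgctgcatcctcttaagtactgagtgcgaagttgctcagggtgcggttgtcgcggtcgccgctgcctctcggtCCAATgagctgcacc
G6pc: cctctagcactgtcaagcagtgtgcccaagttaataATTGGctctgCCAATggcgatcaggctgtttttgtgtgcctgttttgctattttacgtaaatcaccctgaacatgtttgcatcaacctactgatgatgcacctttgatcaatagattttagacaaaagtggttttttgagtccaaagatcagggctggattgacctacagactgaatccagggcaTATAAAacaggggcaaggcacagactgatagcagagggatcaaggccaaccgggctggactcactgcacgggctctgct
Ppargc1a: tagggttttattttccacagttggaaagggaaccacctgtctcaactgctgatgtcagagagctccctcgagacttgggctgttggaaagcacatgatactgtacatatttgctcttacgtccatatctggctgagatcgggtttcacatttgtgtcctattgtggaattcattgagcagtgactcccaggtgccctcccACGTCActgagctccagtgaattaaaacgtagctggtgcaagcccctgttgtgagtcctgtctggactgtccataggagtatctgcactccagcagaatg
Pck1: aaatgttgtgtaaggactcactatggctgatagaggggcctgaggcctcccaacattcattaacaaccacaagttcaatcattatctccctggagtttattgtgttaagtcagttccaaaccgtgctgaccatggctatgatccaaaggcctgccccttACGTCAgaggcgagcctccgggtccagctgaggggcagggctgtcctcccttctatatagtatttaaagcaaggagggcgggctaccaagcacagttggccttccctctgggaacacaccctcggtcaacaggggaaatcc
The windows lie at chr13:35967656-35967955 on the plus strand for Ppp1r3g, chr19:36736555-36736854 on the minus strand for Ppp1r3c, chr11:101367466-101367765 on the plus strand for G6pc, chr5:51567676-51567975 on the minus strand for Ppargc1a and chr2:173152823-173153122 on the plus strand for Pck1. RefSeq entries matched 7 of the 9 genes, and Gys2 and Ppp1r3b are named only. The cAMP response element core stood in 3 of the 7 windows, those of Ppp1r3g, Ppargc1a and Pck1, against 7.51% of all 32851 promoters in the table. An E-box stood in Ppp1r3c and Irs2 (2 of 7, against 7.15%). A TATA box stood in G6pc alone, at position -29 from the start (1 of 7, against 13.6%). CCAAT stood in 4 of 7 windows (against 37.4% of all), those of G6pc, Irs2, Ppp1r3c and Ppp1r3g, and the FOXO core in 0 of 7 (against 3.65%). No match overlapped another motif. The 3 genes with the cAMP response element core did not share a pattern over the liver libraries, since Ppp1r3g and Ppargc1a were lowest in control while Pck1 was highest in the KRG and control libraries. A match describes the letters of the window and is not evidence of binding.

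On GRCm38/mm10 the annotation (GENCODE M21) places Ppp1r3b at chr8:35375739-35388139 and Ppp1r3g at chr13:35958839-35970388, both on the plus strand, and Ppp1r3c at chr19:36731731-36736653 on the minus strand. Gys2 lies at chr6:142422613-142473109 and Pygl at chr12:70190811-70231488, both on the minus strand. G6pc lies at chr11:101367561-101377903 and Pck1 at chr2:173153048-173159273, both on the plus strand. Irs2 lies at chr8:10984681-11008458 and Ppargc1a at chr5:51454250-51567726, both on the minus strand. All are protein coding, and no other annotated gene overlaps the last 2 kb of any of them, where 3' end reads fall. The printed Ppp1r3g window starts inside the GENCODE span of that gene, since RefSeq gives a later start.

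Library totals ran from 12372073 to 15290950 counts, so that a count of 0 allows up to 0.196 to 0.243 CPM (3 counts). Rn45s, the ribosomal RNA precursor, took 9.02%, 11.5%, 12.4% and 8.30% of the control, BPA, KRG and combined livers. All 10 hepatocyte markers were present in every liver library, with summed levels between 46766 and 54338 CPM. The BPA liver library also held acinar pancreas markers (summed 1051 CPM, against 1.64 to 8.64 in the other 3), and the control and KRG livers held skeletal muscle markers (191 and 537 CPM, against 2.93 with BPA and 1.70 with both). In the combined liver, neutrophil markers summed to 102 CPM (against 8.76 to 19.8 in the other 3) and macrophage markers to 830 CPM (against 444 to 618). Erythroid markers summed to 3746, 7345, 5399 and 1781 CPM in the control, BPA, KRG and combined livers. With totals that leave the acinar, skeletal muscle and erythroid lists out, 45 of 45 liver ratios of the genes stayed inside their counting interval. That step changes the totals by the listed markers only and leaves in all other RNA of those tissues. The part of those tissues in the levels of the genes was not tested.

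**Figure D1:**
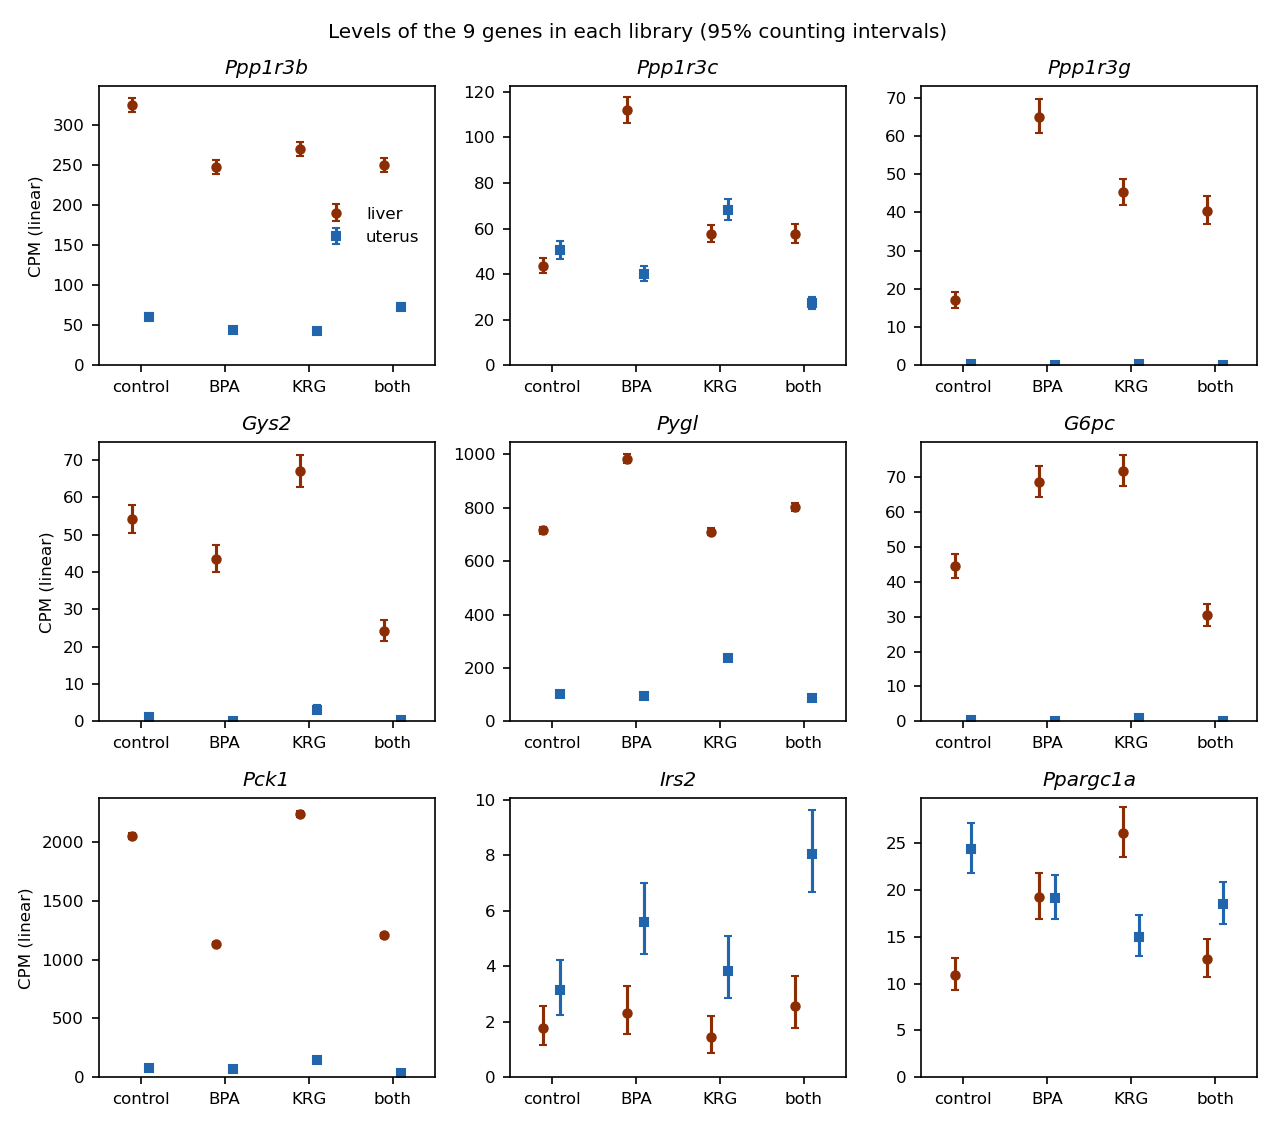
Level of each of the 9 genes in CPM (linear axis from 0) in the control, BPA, KRG and combined libraries of liver (circles) and uterus (squares), 1 library per point, with exact 95% Poisson intervals of the count. G6pc and Ppargc1a are high in the BPA and KRG livers and low in the other 2, while Pck1 is low in both livers given BPA.

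Among the glycogen-targeting subunits, Ppp1r3g and Ppp1r3c were higher in the BPA liver than in control and Ppp1r3b was lower. Ppp1r3g, whose product is known to act in liver glycogen synthesis after a meal, stood at 17.0 CPM in the control liver, 65.1 with BPA, 45.3 with KRG and 40.5 with both. All 3 treated libraries were above control. The BPA liver was 3.83-fold higher than control (95% counting interval 3.33 to 4.41), the KRG liver 2.66-fold (2.31 to 3.09) and the combined liver 2.38-fold (2.05 to 2.78). The combined and KRG livers were not separated by counting error (ratio 0.894, 0.794 to 1.01), and the combined liver was 1.61-fold lower than the BPA liver. In bulk tissue, fewer cells of a type and less RNA per cell cannot be told apart. Each ratio compares 2 libraries, its Clopper-Pearson interval covers counting error only, and without molecular identifiers reads need not be independent molecules.

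Ppp1r3c, the subunit also called PTG (protein targeting to glycogen), stood at 43.6 CPM in control, 112 with BPA, 57.7 with KRG and 57.7 with both. The BPA library stood alone above the other 3, 2.57-fold over control (2.34 to 2.82), and the KRG and combined livers were level. With both treatments it was 1.94-fold lower than with BPA (1.77 to 2.12). Ppp1r3b, the main subunit of this family in hepatocytes (GL), stood at 325 CPM in control, 248 with BPA, 271 with KRG and 250 with both. Control was the highest library, 1.31-fold over BPA (1.26 to 1.37), and the BPA and combined livers were not separated by counting error.

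The balance among the 3 subunits differed between the liver libraries. The summed level of the 3 genes was 386 CPM in control, 425 with BPA, 374 with KRG and 348 with both. Ppp1r3b made up 84.3% of these counts in the control liver (Clopper-Pearson 83.4 to 85.2%), 58.3% with BPA (57.0 to 59.6%), 72.4% with KRG and 71.8% with both. Ppp1r3g made up 4.41% in control, 15.3% with BPA, 12.1% with KRG and 11.6% with both. Ppp1r3c made up 11.3%, 26.3%, 15.5% and 16.6% in the same order. These shares do not depend on how the libraries are scaled to each other. The remaining family members were scarce in liver, where Ppp1r3a, Ppp1r3d, Ppp1r3e and Ppp1r3f had mean levels of 0.0356, 0.192, 0.770 and 0.240 CPM over the 4 libraries.

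**Figure D2:**
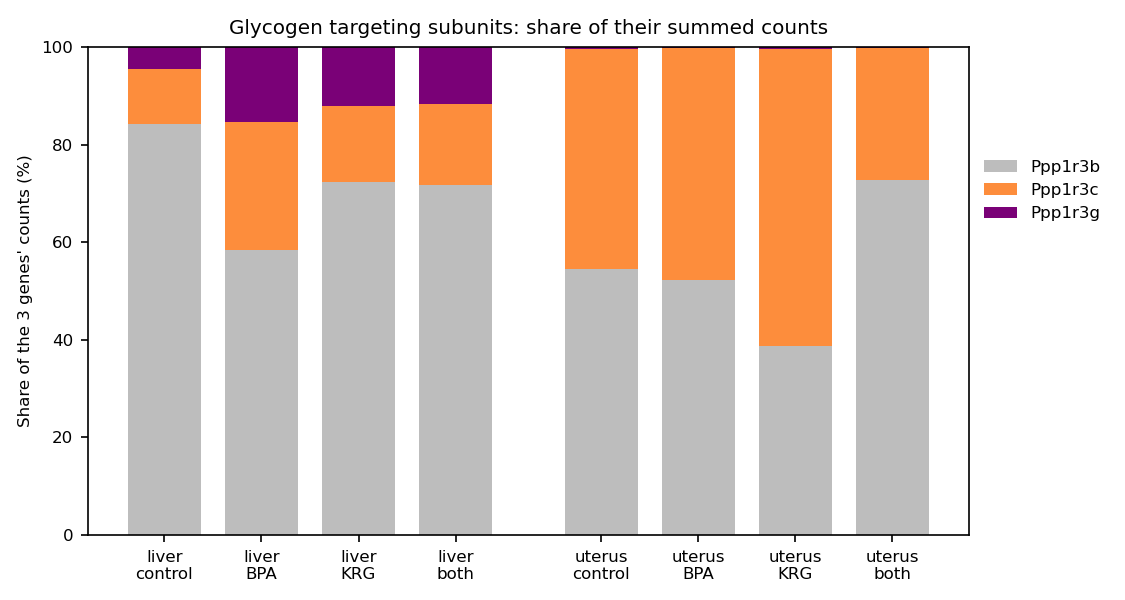
Share (%) of the summed counts of Ppp1r3b, Ppp1r3c and Ppp1r3g held by each gene in each of the 4 liver and 4 uterus libraries (stacked bars adding to 100%). Ppp1r3b holds 84.3% in the control liver and 58.3% in the BPA liver, and Ppp1r3g holds 0.135% to 0.412% in the uterus libraries.

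The enzymes that build and break glycogen differed in other ways. Gys2, the liver glycogen synthase, stood at 54.1 CPM in control, 43.6 with BPA, 66.9 with KRG and 24.2 with both. The combined liver was the lowest of the 4, and each step in the order was larger than counting error. It was 2.77-fold lower than the KRG liver (2.43 to 3.16), 2.24-fold lower than control (1.96 to 2.56) and 1.80-fold lower than the BPA liver (1.56 to 2.08). The combined liver, where G6pc was lowest too, also held the most neutrophil and macrophage marker RNA (102 and 830 CPM), whose part in these values was not tested. Pygl, the liver glycogen phosphorylase, stood at 716 CPM in control, 983 with BPA, 710 with KRG and 803 with both. Its 2 libraries given BPA were the higher ones, and its highest over lowest ratio of 1.38 was under 2-fold. Pygl counts per Gys2 count were 13.2 in control, 22.6 with BPA, 10.6 with KRG and 33.2 with both, higher in both libraries given BPA.

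Of the enzymes of gluconeogenesis, G6pc and Pck1 showed unlike patterns. G6pc, the catalytic subunit of glucose-6-phosphatase, which frees glucose for release from the cell, stood at 44.5 CPM in control, 68.5 with BPA, 71.7 with KRG and 30.4 with both. The BPA and KRG livers were level (ratio 1.05, 0.956 to 1.15) and above control, 1.54-fold (1.39 to 1.71) and 1.61-fold (1.46 to 1.78), and the combined liver was below control. With both treatments G6pc was 2.26-fold lower than with BPA (2.00 to 2.55) and 2.36-fold lower than with KRG (2.10 to 2.66). Pck1, the cytosolic phosphoenolpyruvate carboxykinase, stood at 2050 CPM in control, 1133 with BPA, 2236 with KRG and 1206 with both. Both livers given BPA were lower than both without it, 1.81-fold for BPA against control (1.77 to 1.85) and 1.85-fold for both against KRG (1.82 to 1.89). These 2 ratios share no library. Pck1 counts per G6pc count were 46.1 in control, 16.5 with BPA, 31.2 with KRG and 39.7 with both.

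The regulators were the least abundant of the 9. Ppargc1a, which encodes the coactivator PGC-1 alpha, stood at 10.9 CPM in control, 19.2 with BPA, 26.0 with KRG and 12.6 with both, from 156 to 380 counts. It was high in the livers given 1 treatment and low in the other 2, which counting error did not separate. The KRG liver was 2.39-fold over control (1.98 to 2.88) and the BPA liver 1.76-fold (1.44 to 2.15), and the combined liver was 2.07-fold below KRG (1.71 to 2.51). Irs2, a docking protein that carries the insulin signal in liver, stood at 1.77, 2.31, 1.44 and 2.59 CPM in control, BPA, KRG and combined livers, from only 21 to 32 counts. No neighbours in that order were separated by counting error, and Irs2 did not pass the 10 CPM filter.

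**Figure D3:**
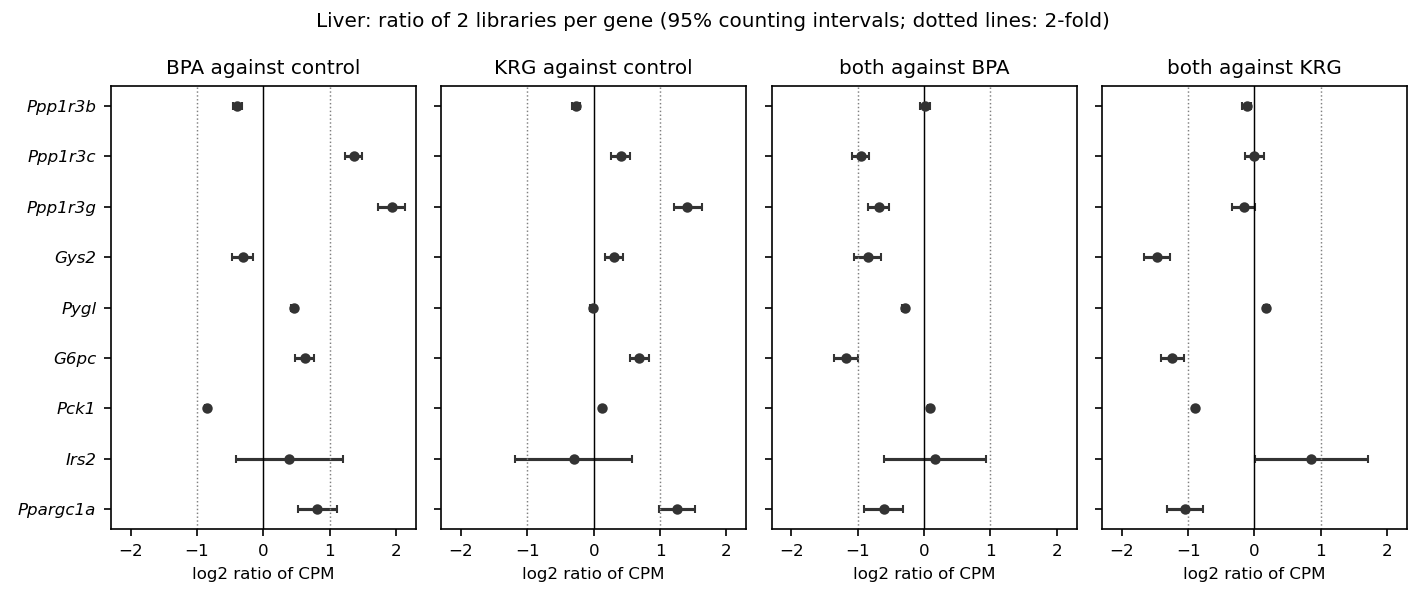
Log2 ratio of CPM between 2 liver libraries for each of the 9 genes, 1 panel per comparison (BPA or KRG alone against control, then the combined liver against each single treatment), with 95% counting intervals and dotted lines at 2-fold. Ppp1r3g, G6pc and Ppargc1a lie above 0 in the first 2 panels and G6pc and Ppargc1a below 0 in the last 2, while Pck1 lies at -0.86 and -0.89 in the panels that add BPA.

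Counts were made over the 8 genes that averaged 10 CPM or more in liver, beside all 6709 genes that passed that filter. For BPA against control 2 of the 8 genes were at least 2-fold higher (Ppp1r3g and Ppp1r3c) and 0 lower, against 1.36% of all genes higher and 3.49% lower. The median log2 ratio was 0.54 over the 8 and -0.08 over all genes. KRG against control gave 2 higher (Ppp1r3g and Ppargc1a) and 0 lower, against 1.22% and 1.46% of all genes, with medians of 0.36 and -0.05. Both against BPA gave 0 higher and 1 lower (G6pc), against 2.77% and 1.37%, with medians of -0.65 and 0.12. Both against KRG gave 0 higher and 3 lower (Gys2, G6pc and Ppargc1a, which is not past 2-fold with a pseudocount of 1 CPM, at a ratio of 0.503), against 1.62% and 1.33%, with medians of -0.53 and 0.08. Both against control gave 1 higher (Ppp1r3g) and 1 lower (Gys2), against 1.24% and 1.55%, with medians of -0.11 and 0.04. These comparisons share libraries and are not independent of each other, and with 1 library a group none was tested. The 8 genes, and the gene lists below, were chosen with earlier results of these data known. Their counts are therefore not independent of those results, and the all-gene shares are given as a description.

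Scaling moved some of these counts. The all-gene split for BPA against control was 91 higher and 234 lower with column totals, and 120 and 167 with edgeR's trimmed mean of M values (TMM), where the all-gene median became 0.04. For both against BPA it was 186 and 92, and 114 and 132 with TMM (median -0.03). With TMM 2 of the 8 genes were at least 2-fold lower in both against BPA (G6pc and Ppp1r3c), and 3 with DESeq2 size factors (Gys2 in addition).

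The 4 livers can be paired in 3 ways, by BPA, by KRG, or as the livers given 1 treatment alone against the control and combined livers, and each gene without ties is separated by exactly 1 of these. Of the 8 genes, 5 were separated by BPA, against 36.5% of all genes: Pck1, Gys2 and Ppp1r3b lower with it, and Pygl and Ppp1r3c higher, the last by a near tie (ratio 1.00 of both over KRG) that went to the treatments given alone under the other 4 scalings. Over all genes 18.5% were higher and 18% lower with BPA by this count. Skeletal muscle marker sums were also lower in both livers given BPA (191, 2.93, 537 and 1.70 CPM in control, BPA, KRG and combined). The part of such tissue in the split by BPA was not tested. Of the 8, 0 were separated by KRG, against 27.6% of all genes. Ppp1r3g, G6pc and Ppargc1a were higher in both livers given 1 treatment alone and 0 of 8 were lower, against 9.35% of all genes higher and 26.5% lower. Under TMM it was 4 and 0 of 8, and the all-gene shares became 17.6% and 15.9%, so this background depends on the scaling. For Ppp1r3g the nearest pair, KRG over both, differed by 1.12-fold only. Rn45s shares and erythroid marker sums were likewise higher in the livers given 1 treatment alone. With Rn45s out of the totals the counts were 4 and 0 of 8, beside 13.3% and 19.1% of all genes. With the acinar, skeletal muscle and erythroid lists out they were 4 and 0 of 8, beside 9.64% and 25.7%. Since the 8 genes were chosen with earlier results of these data known, these split counts are not independent of those results.

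The difference of the BPA ratio with and without KRG gives 1 value per gene. This value was large for Gys2 and Ppp1r3c too, though column totals separated them by BPA above. On the log2 scale, both over KRG minus BPA over control was -2.10 for Ppp1r3g (counting SE 0.13), -1.86 for G6pc (0.11), -1.86 for Ppargc1a (0.20), -1.36 for Ppp1r3c (0.10) and -1.16 for Gys2 (0.12). It was -0.04 for Pck1 (0.02), -0.28 for Pygl (0.03) and 0.28 for Ppp1r3b (0.05). Pck1 had nearly the same BPA ratio in both pairs of livers. The SE covers counting error only and there is no replicate to test the difference.

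A model that adds a BPA and a KRG term over the 4 livers leaves 1 residual degree of freedom and takes any joint effect as error. Of the 8 genes, 0 passed an adjusted p of 0.05 for either term (edgeR quasi-likelihood, Benjamini-Hochberg), as did 0 of 6709 genes (0% called), while 357 genes for BPA and 221 for KRG had an unadjusted p under 0.05. Pck1 was the only one of the 8 among the 357, with a log2 difference of -0.87 and an adjusted p of 0.849 in edgeR. DESeq2 called 26 genes for BPA (0.388%) and 49 for KRG (0.73%), again with 0 of the 8, and its adjusted p for Pck1 was 0.0705.

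Differences of 2-fold were few among the other genes of these pathways, as they were among all genes. Over the 5 comparisons, 1.22% to 2.77% of all genes were at least 2-fold higher and 1.33% to 3.49% lower. Of 16 further glycogen genes above 10 CPM, among them Gbe1 (the branching enzyme) and Ugp2 (which makes the glucose donor), 0 were at least 2-fold apart in any of the 5 comparisons. Gbe1 stood at 59.2, 72.8, 75.7 and 53.2 CPM in the control, BPA, KRG and combined livers. Of 24 further gluconeogenesis genes, 1 was at least 2-fold apart: Sds, the serine dehydratase that feeds pyruvate into the pathway, at 60.0 CPM in control, 21.6 with BPA, 50.6 with KRG and 54.0 with both. It was 2.78-fold lower with BPA than in control (2.43 to 3.19) and 2.50-fold higher in the combined than in the BPA liver (2.17 to 2.89). That placed Sds lowest in the BPA liver alone, unlike Pck1.

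Differences under 2-fold between the livers given 1 treatment and the other 2 were found among the 24. The count higher in both livers given 1 treatment alone was 10 of 24 (41.7%) and 12 with TMM. The all-gene shares higher were 9.35% with column totals and 17.6% with TMM. The count lower was 3 of 24 (12.5%) with either scaling, beside 26.5% of all genes with column totals and 15.9% with TMM. 3 of the higher genes, singled out after their values were seen, belong to the final steps or to glucose transport. Slc37a4, the transporter that carries glucose-6-phosphate to G6pc, stood at 275 CPM in control, 389 with BPA, 403 with KRG and 289 with both. Slc2a2, the glucose transporter GLUT2, stood at 155, 214, 215 and 170 CPM. Fbp1, fructose-1,6-bisphosphatase, stood at 284, 379, 371 and 243 CPM. The higher pair exceeded the lower pair by 1.26-fold to 1.35-fold at the nearest libraries for these genes. Pck2, the mitochondrial isoform of Pck1, had a mean of 1.71 CPM and did not pass the filter.

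Genes that carry the insulin and fasting signals gave 9 of 26 higher and 4 lower in both livers given 1 treatment alone, beside 9.35% and 26.5% of all genes. With TMM the list gave 9 and 2, beside 17.6% and 15.9%. Foxo1, the transcription factor that insulin holds out of the nucleus, was chosen after its values were seen and stood at 43.0 CPM in control, 73.5 with BPA, 82.7 with KRG and 42.9 with both. Angptl4, a fasting-induced inhibitor of lipoprotein lipase, stood at 115, 194, 193 and 75.3 CPM, and was 2.57-fold lower with both than with BPA (2.39 to 2.78) or KRG (2.38 to 2.77). Trib3, a pseudokinase induced by cell stress, stood at 21.4, 48.6, 22.8 and 20.6 CPM, high in the BPA liver alone. Igfbp1, an insulin-repressed binding protein for insulin-like growth factors, stood at 69.1, 136, 51.7 and 185 CPM, higher in both livers given BPA and 3.58-fold higher with both than with KRG (3.29 to 3.89). Igfbp1, Pck1 and G6pc, 3 genes known to be lowered by insulin, were ordered differently over the same 4 livers. The part of insulin in these values was not tested. Akt1, a kinase of the insulin signal, was 2.23-fold lower with BPA than in control (29.0, 13.0, 17.6 and 24.8 CPM). Nr0b2, a corepressor that bile acids induce, stood at 61.2, 46.3, 82.6 and 38.1 CPM, 2.17-fold lower with both than with KRG.

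Glucocorticoid target genes were also measured, since these hormones raise gluconeogenesis. Of 11 above 10 CPM, 5 were at least 2-fold higher with BPA than in control and 8 with KRG, and 0 were lower in either. Of all genes, 1.36% and 1.22% were higher and 3.49% and 1.46% lower. In the combined liver 4 were higher and 1 lower than in control, against 1.24% and 1.55% of all genes. Compared with BPA, 1 was higher and 2 lower, against 2.77% and 1.37%. Compared with KRG, 0 were higher and 3 lower, against 1.62% and 1.33%. Lpin1, a phosphatidate phosphatase that works with PGC-1 alpha, stood at 117 CPM in control, 364 with BPA, 508 with KRG and 86.1 with both. Arrdc2, an arrestin-domain gene, stood at 13.6, 34.2, 55.9 and 13.8 CPM, in the same order of high and low livers as Ppargc1a. Zbtb16, a zinc finger gene induced by glucocorticoids, stood at 11.4, 7.94, 41.5 and 5.42 CPM, high in the KRG liver alone. Ddit4, an inhibitor of mTORC1, stood at 11.2, 67.8, 51.9 and 41.3 CPM, lowest in control as Ppp1r3g was. Mt2, a metallothionein, stood at 997.5, 2301, 3328 and 3521 CPM, and Mt1 at 488, 740, 1112 and 1081 CPM. Dusp1, a MAP kinase phosphatase, was high in both livers given KRG (21.1, 20.2, 52.3 and 44.5 CPM). Fkbp5, Sgk1 and Per1, named after their values were seen, were under 2-fold apart between BPA and control. They stood at 128, 9.9 and 34.2 CPM in control and at 127.7, 9.4 and 45.2 CPM with BPA. This list holds genes that earlier results of these data had shown to differ, so its count is not independent of them.

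Of the genes of the fed state, Srebf1, the transcription factor of fatty acid synthesis, stood at 74.4, 18.5, 46.0 and 96.4 CPM. The BPA liver was 4.02-fold below control (3.50 to 4.64) and 5.21-fold below the combined liver. Srebf1 was low where G6pc and Ppargc1a were high. Over the 16 genes of this list 2 were lower (12.5%) and 2 higher in both livers given 1 treatment alone, beside 26.5% of all genes lower and 9.35% higher. Scd1, the stearoyl-CoA desaturase, stood at 1737, 1952, 1331 and 926 CPM.

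**Figure D4:**
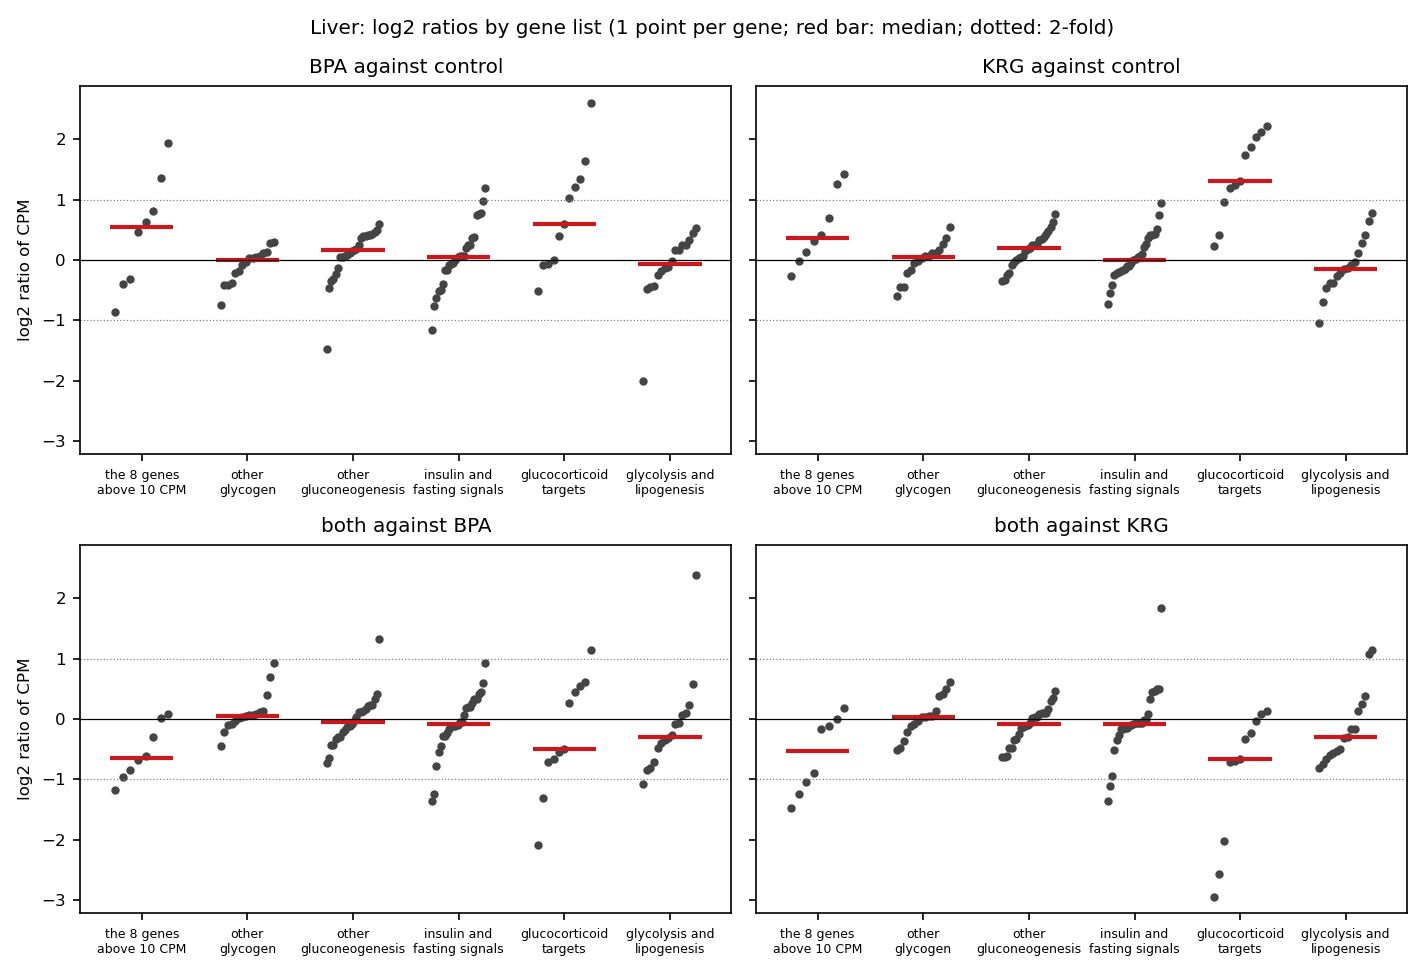
Log2 ratio of CPM between 2 liver libraries for each gene above 10 CPM (points), grouped as the 8 genes of interest and 5 lists of related genes, with the median of each group as a red bar and dotted lines at 2-fold. The 8 genes have medians of 0.54 and 0.36 against control and -0.65 and -0.53 for both against BPA and KRG, while all 16 further glycogen genes lie within 2-fold.

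For each gene whose highest liver level was at least 2 times its lowest, the 3 genes closest in pattern were sought among 603 genes with the same spread, by the root mean square distance of centred log2(CPM + 1) values over the 4 livers. For G6pc these were Angptl4 (distance 0.08), Spata2l (0.13) and Gdf15 (0.16). The closest to Ppargc1a were Il6ra (0.05), Scaf4 (0.10) and Myo1e (0.11). Ppp1r3g was matched by Fam213b (0.07), Csad (0.09) and Cpsf4l (0.25), and Ppp1r3c by Gstm2 (0.06), Fam129b (0.08) and Gstp1 (0.10). Gys2 was matched by Lrrc28 (0.02), Banp (0.07) and BC048644 (0.12). Csad, which makes taurine precursors, stood at 136, 478, 300.2 and 317 CPM, and Gstm2, a glutathione transferase, at 83.6, 193, 110 and 105 CPM. With 4 libraries per pattern these distances are a description.

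Uterus served as the reference tissue, with all 9 uterus markers detected in each of its libraries. Over 4 libraries per tissue with treatment as a block, 7 of the 8 genes tested were higher in liver at an adjusted p under 0.05 (edgeR quasi-likelihood, Benjamini-Hochberg). Of all 9941 genes tested 73.1% differed, 33.4% higher and 39.7% lower in liver. The genes were chosen as liver genes, and the filter took a mean of 10 CPM in either tissue. Ppp1r3g, Gys2 and G6pc, with uterus means of 0.279, 1.26 and 0.306 CPM, passed through liver only. Their direction was therefore close to fixed by the choice and the filter. The log2 difference was 8.40 for G6pc (adjusted p = 0.000161), 7.95 for Ppp1r3g (8.7e-05), 6.31 for Gys2 (0.000163), 5.22 for Pck1 (7.3e-05), 3.60 for Pygl (0.000525) and 3.17 for Ppp1r3b (0.00013). G6pc, with 0 counts in 2 uterus libraries, moved to 9.66 without the KRG liver, 9.70 without the KRG uterus and 9.69 with DESeq2, and Gys2 to 6.91 and 6.96 without the same 2 libraries. For Ppp1r3c it was 1.36 (0.0175), and the call was lost without the combined liver (adjusted p = 0.065), without the combined uterus (0.062) and with column totals (0.217). Ppargc1a did not pass, at 0.61 (0.147), passed without the control uterus (0.0365), and turned to -0.24 with column totals. Column totals moved the all-gene median from -0.12 to -0.98 and the split to 1817 higher and 6299 lower. Irs2 was below the filter in the main test, and with a filter of 1 CPM its difference was -0.33 (adjusted p = 0.341).

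Among the uterus libraries, G6pc had 4, 0, 12 and 0 counts in control, BPA, KRG and combined. Gys2 had 17, 3, 41 and 6 counts, or 1.27, 0.219, 3.16 and 0.406 CPM. Both were highest in the KRG uterus and lowest where BPA was given. Hepatocyte markers followed the same order, with summed levels of 776, 44.8, 1573 and 55.6 CPM, which is 1.50%, 0.0866%, 3.04% and 0.107% of their liver mean. All 10 were detected in the control and KRG uterus, while Apob was at 0 in both uteri given BPA, Cps1 in the BPA one and Tat in the combined one. G6pc stood at 0.556%, 0%, 1.72% and 0% of its liver mean and Gys2 at 2.69%, 0.464%, 6.69% and 0.860%. Ppp1r3g had 5, 2, 6 and 2 counts. The part of hepatocyte RNA in these uterus values was not tested.

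Pck1 and Pygl were better measured in uterus. Pck1 stood at 80.9 CPM in control, 68.7 with BPA, 148 with KRG and 40.4 with both, and Pygl at 101, 94.0, 238 and 87.1 CPM. Each was highest in the KRG uterus, 1.83-fold over control for Pck1 (1.70 to 1.98) and 2.36-fold for Pygl (2.21 to 2.51). Adipocyte markers, a cell type that also uses Pck1, summed to 5438, 5366, 12346 and 4911 CPM, with 6 of 6 detected in each library. Their part in the Pck1 and Pygl values was not tested. Ppp1r3b, at 60.8, 44.0, 43.5 and 72.9 CPM, was highest in the combined uterus, which held the least Ppp1r3c (50.5, 40.2, 68.1 and 27.3 CPM). Irs2 stood at 3.14, 5.61, 3.85 and 8.04 CPM, higher in both uteri given BPA. In liver its levels with BPA were also the higher ones, but from fewer counts, and counting error separated no neighbours there. Ppargc1a stood at 24.4, 19.1, 15.0 and 18.5 CPM, highest in control, while in liver control was the lowest library.

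**Figure D5:**
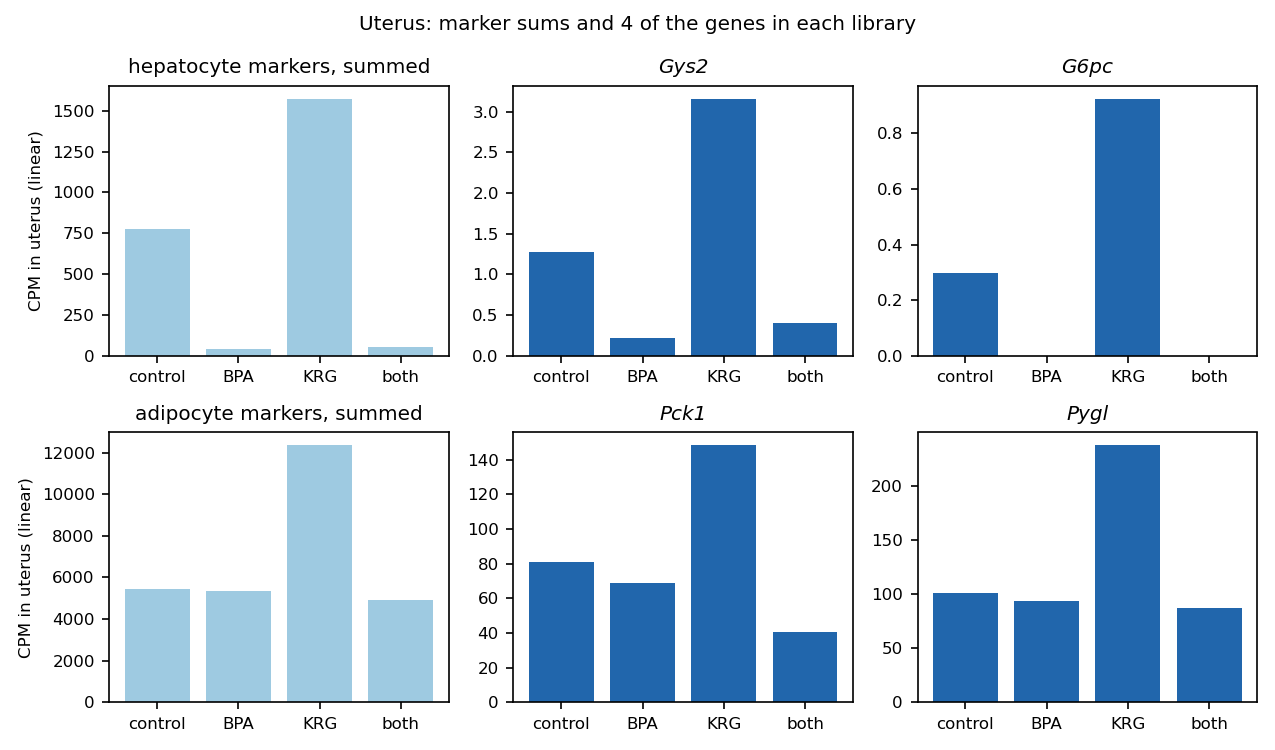
Level in CPM (linear axes from 0) in the 4 uterus libraries of summed hepatocyte markers, Gys2 and G6pc (top row) and of summed adipocyte markers, Pck1 and Pygl (bottom row), 1 library per bar. All 6 quantities are highest in the KRG uterus.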

How the data were processed

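RNA was measured in 8 libraries by QuantSeq 3' end sequencing from 500 ng of total RNA, per the labels' protocols. The authors deposited unnormalized integer counts for each gene in a separate file per library. Bowtie2, edgeR and the mm10 build appear in the submitters' processing notes. Their versions and roles, the counter, and the handling of strand and of multiply matching reads are not given here by any source. Of the 23282 rows, 44 repeat a symbol and were kept.

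The 9 genes and the gene lists were chosen with earlier results of these data known. Named genes are the 9, up to 4 per list that were at least 2-fold apart in a comparison of 2 livers, and the 3 most alike in pattern; others are marked in the text. CPM used column totals, and ratios used genes averaging 10 CPM or more in liver. Ratio intervals are Clopper-Pearson intervals given the sum of both counts. Models used edgeR 4.0.16 (TMM, quasi-likelihood) in R 4.3.3, with DESeq2 1.42.0 as an alternative. The edgeR models, additive and of tissue, were tested on simulated counts with 4-fold differences and no joint effect of BPA and KRG. DESeq2 was not tested in that way. Tables were made with Python 3.11.15. Ribosomal RNA or RNA of other tissues in a library lowers the CPM of every other gene, so 4 other scalings were tried, as were pseudocounts of 1 and 5 CPM, filters of 1 CPM and none, and leaving out each library in the tissue comparison. No label states separate animals behind the libraries of a tissue. With treatment as a block, the tissue p-values measure how far the tissue difference varies between the treatments, not between animals. Coordinates are from GENCODE M21. Some results for genes of the lists are not reported here.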

Additional observations from a re-analysis of the deposited data

Results flagged for a closer look

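For 5 genes the ratio of adding 1 treatment in liver lay on opposite sides of 1 without and with the other treatment, with counting intervals that left 1 out. Each pair of ratios has 1 library per group, and the difference between them was not tested. Adding KRG gave log2 ratios of 0.41 without BPA and -0.95 with it for Ppp1r3c, 1.41 and -0.68 for Ppp1r3g, 0.31 and -0.85 for Gys2, 0.69 and -1.17 for G6pc, and 1.25 and -0.61 for Ppargc1a. Adding BPA gave 0.62 without KRG and -1.24 with it for G6pc, and 0.81 and -1.05 for Ppargc1a.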

How the results depend on the processing

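Replicate numbers were given in accession order to groups of 1 library, so they could not pair libraries by animal. The labels do not say if both tissues came from the same animals. The tissue comparison was blocked by treatment instead, which sets the liver of each treatment beside its uterus. Without that block it called 7590 genes against 7268, and 7 of the 8 genes of interest either way. Leaving out a liver in the additive model leaves no residual degrees of freedom and was not run. With a pseudocount of 5 CPM the all-gene counts at least 2-fold apart were 188 for BPA against control and 175 for both against BPA, and 1 of the genes of interest (Ppp1r3g) stayed past 2-fold for KRG against control. With pseudocounts of 1 and 5 CPM 2 of 8 were past 2-fold for both against KRG, and Ppargc1a was not. A filter of 1 CPM gave 1112, 678, 1071, 812 and 733 genes for BPA and KRG against control and both against BPA, KRG and control, and no filter 3330, 3010, 3295, 3147 and 2931, since more genes with few counts enter. For both against BPA the genes of interest past 2-fold numbered 2 with TMM, 3 with DESeq2 size factors and 2 without Rn45s in the totals. The additive model called 26 (DESeq2), 2 (1 CPM) and 32 (no filter) genes for BPA and 49, 2 and 25 for KRG. Under the 4 other scalings 1 of the 8 genes was higher in both livers given BPA, and 5 of the insulin and fasting genes with TMM or DESeq2 size factors. All genes higher in both livers given 1 treatment alone numbered 1182 with TMM and 1226 with DESeq2 size factors. The liver against uterus difference of Ppargc1a was -0.24 with column totals (adjusted p = 0.525); leaving out 1 library gave 6413 to 6832 genes and 6 to 8 of the 8 genes called. Of 45 liver ratios of the 9 genes, 11 left their counting interval with TMM, 13 with DESeq2 size factors and 8 without Rn45s. The cause was not tested. Irs2, with 21 to 32 counts a liver, is limited by depth.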
